A study of Saccharomyces cerevisiae with 11 samples.

Results

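The genes described here were 57 enzymes and enzyme subunits of amino acid synthesis in budding yeast and GCN4, the transcription activator of many of them. The 58 members were chosen by gene name from the pathways of arginine (6 genes), histidine (6), lysine (6), branched-chain amino acids (10), aromatic amino acids (13), serine (4), threonine (5), asparagine (2) and glutamate, glutamine and proline (5). HIS3, LEU2 and LYS2 were left out because the parent strain lacks them. All 58 were among the 6256 genes on the arrays, 56 under their own name and 2 (ARG7 and LEU9) under a systematic name, and all 58 were detected in the reference channel of all 11 arrays. In the experimental channel, 636 of 638 values were above the detection limit. The exceptions were ARG8 on asf1 with TSA and ARG3 on vps75 with TSA. Bounds are given for these 2 values, while the medians, counts, fits and figures use them as measured.

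Yeast makes every amino acid that proteins need, and most of the genes for this carry binding sites for the activator Gcn4 in their promoters. Gcn4 is controlled mainly through translation of its mRNA, which increases when amino acids run short, so the level of GCN4 mRNA and the activity of the protein can move apart. In rich medium, which supplies amino acids, many of these genes run at a low or basal rate, and single branches add activators or repressors of their own, such as the arginine repressor complex.

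The study compared strains without single histone chaperones, proteins that hand histones to and from DNA. Asf1, Rtt106 and Vps75 bind histones H3 and H4, Nap1 binds H2A and H2B, and Chz1 binds the variant H2A.Z with H2B. Single deletions of the 5 genes (asf1, chz1, nap1, rtt106 and vps75) were made in BY4742, a laboratory strain of mating type alpha, and grown in YPD at 30 °C. Each was hybridised once without and once with trichostatin A (TSA), an inhibitor of histone deacetylases, given at 10 µM for 1 hour at an optical density of 0.5, and BY4742 itself was hybridised once with TSA. All 11 arrays had 2 colours, with untreated wild type named as the reference in the sample descriptions. For each of the 5 deletion arrays with TSA, and for untreated chz1, the channel entries instead name the untreated deletion strain. The deleted gene was present in the reference channel of all 10 deletion arrays, with a signal of at least 716, and the wild type reading is used below. Each strain and treatment therefore had 1 array, and nothing in the labels says whether the 2 arrays of a strain came from separate cultures or separate clones.

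Values are log2 ratios of experimental over reference RNA unless stated otherwise, so that 0 is no difference. The deleted gene lay between -4.53 and -2.86 on its own arrays and between -0.39 and 0.39 on the others. The markers of mating type alpha were detected, 3 of 3 in each channel, with summed signals from 9400 to 46791, and 2 to 5 of the 5 markers of mating type a were detected, with sums from 177 to 2177, highest on asf1 without TSA. Median signals were 376 to 1081 in the experimental channel and 358 to 1097 in the reference channel, and within an array the 2 measurements of each gene correlated at 0.811 to 0.972. The members' repeat measurements differed by a median of 0.03 to 0.07. The array of chz1 without TSA stood apart, with an SD of log2 ratios over all genes of 0.54 against 0.19 to 0.42 on the other arrays. Its title adds the word glucose to the strain name, the other titles do not, and whether it came from another experiment is not stated in the labels. It is used here as untreated chz1, and the main means and counts that include it are also given without the chz1 pair. On the asf1 array with TSA the signal of the 4 genes that BY4742 lacks was 132 in the experimental channel, against 7.21 to 61.1 on the other arrays. The wild type array has no deleted gene, so its direction is only likely.

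Most members stayed close to the reference. On all 11 arrays 32 of the 58 members lay within 1.5-fold of it, and on the 10 arrays other than chz1 without TSA 42 did. The median of the members ranged from -0.22 on chz1 with TSA to 0.02 on asf1 with TSA, while the median of all genes lay within 0.01 of 0 on each array. Without the members on chromosomes III and IX, which are treated apart, the members' median was -0.23 on chz1 with TSA and -0.22 on vps75 with TSA. The widest spread over the 11 arrays belonged to SER3, followed by ARG1, HIS5 and LYS1, and over the 10 arrays other than untreated chz1 it belonged to SER3, followed by HIS6, ARG1 and LYS1.

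**Figure D1:**
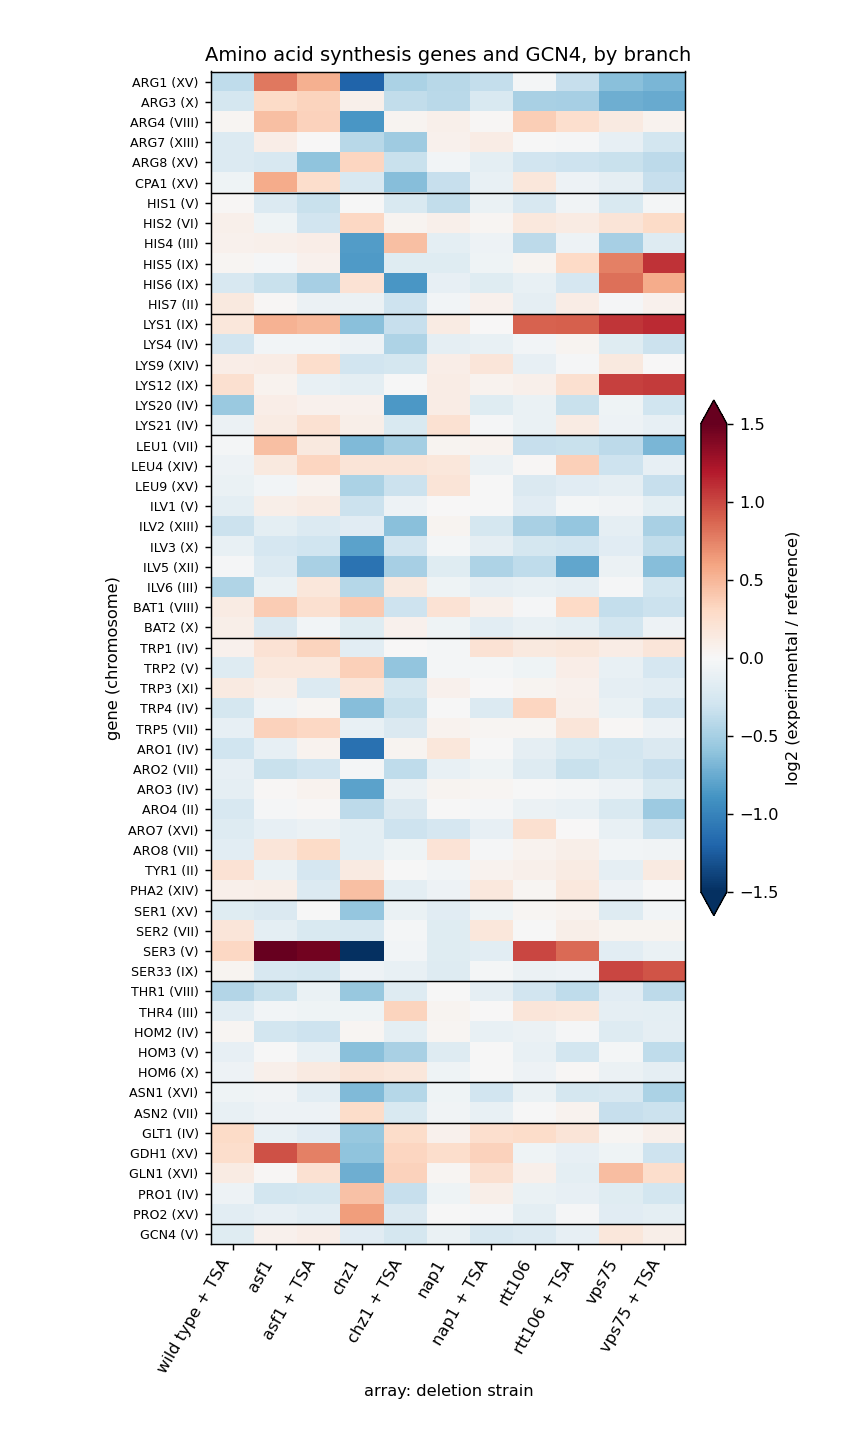
Log2 ratio of experimental over reference RNA for the 58 members (down, with the chromosome in brackets, black lines between branches) on the 11 arrays (across), with red higher and blue lower than the reference and colours saturating at 1.5. The 5 chromosome IX genes are red on both vps75 arrays, SER3 is red in asf1 and rtt106, and the chz1 array without TSA holds most of the strongest blue, with 16 members at least 1.5-fold lower.

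In the vps75 deletion, 5 members stood above the reference by 1.5-fold or more without TSA, and these were all 5 members that lie on chromosome IX. The share of all genes that far above the reference on that array was 3.8%. LYS12, homoisocitrate dehydrogenase of the lysine pathway, lay at 1.03 without and 1.05 with TSA. SER33, a 3-phosphoglycerate dehydrogenase that opens the serine branch, lay at 1.01 and 0.95. HIS5, histidinol-phosphate aminotransferase, lay at 0.76 and 1.08. These 3 genes read between -0.85 and 0.30 on the other 9 arrays, so the vps75 arrays stood clear of them. HIS6, an isomerase of the histidine pathway, was at 0.83 and 0.56 in vps75 and between -0.88 and 0.22 elsewhere. LYS1, saccharopine dehydrogenase of the last lysine step, was at 1.08 and 1.12.

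Each strain was compared with the mean of the other 4 in a limma fit over all 5921 genes that passed the filter on dim spots, with TSA as an additive term and Benjamini-Hochberg adjustment. In vps75, 4 members were higher at an adjusted p under 0.05, against 2.36% of all genes, and 0 were lower, against 0.591%. SER33 was higher by 1.11 ± 0.09 (SE; adjusted p = 0.00536), LYS12 by 1.00 ± 0.10 (0.00536), HIS5 by 1.03 ± 0.13 (0.00653) and LYS1 by 0.85 ± 0.11 (0.00653). HIS6 was at 0.96 ± 0.20 with an adjusted p of 0.052. The 4 called members passed the same test when asf1, nap1, rtt106 or chz1 was left out, and without chz1 HIS6 passed as well, making 5 against 4.64% of all genes.

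The whole of chromosome IX shared this shift. Its 210 genes had a median of 0.88 on the vps75 array without TSA, with quartiles at 0.73 and 0.98, and 98.1% of them lay above 0. With TSA the median was 0.87, with quartiles at 0.65 and 1.02. As linear ratios, these medians are 1.84-fold and 1.82-fold. The vps75 contrast called 140 genes higher, of which 134 lay on chromosome IX, and 6 came from the 5711 genes elsewhere. The 5 members sat within this distribution or just above its upper quartile, apart from HIS6 with TSA, which lay below its lower quartile. Measured relative to the median of their own chromosome, SER33 kept a difference of 0.25, HIS5 of 0.17 and LYS12 of 0.14, LYS1 lay at -0.01, and 0 of the members passed in vps75 in that fit, in which 17 genes did. The setting relative to the own chromosome was chosen after the data had been seen. The number of copies of the chromosome was not measured.

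**Figure D2:**
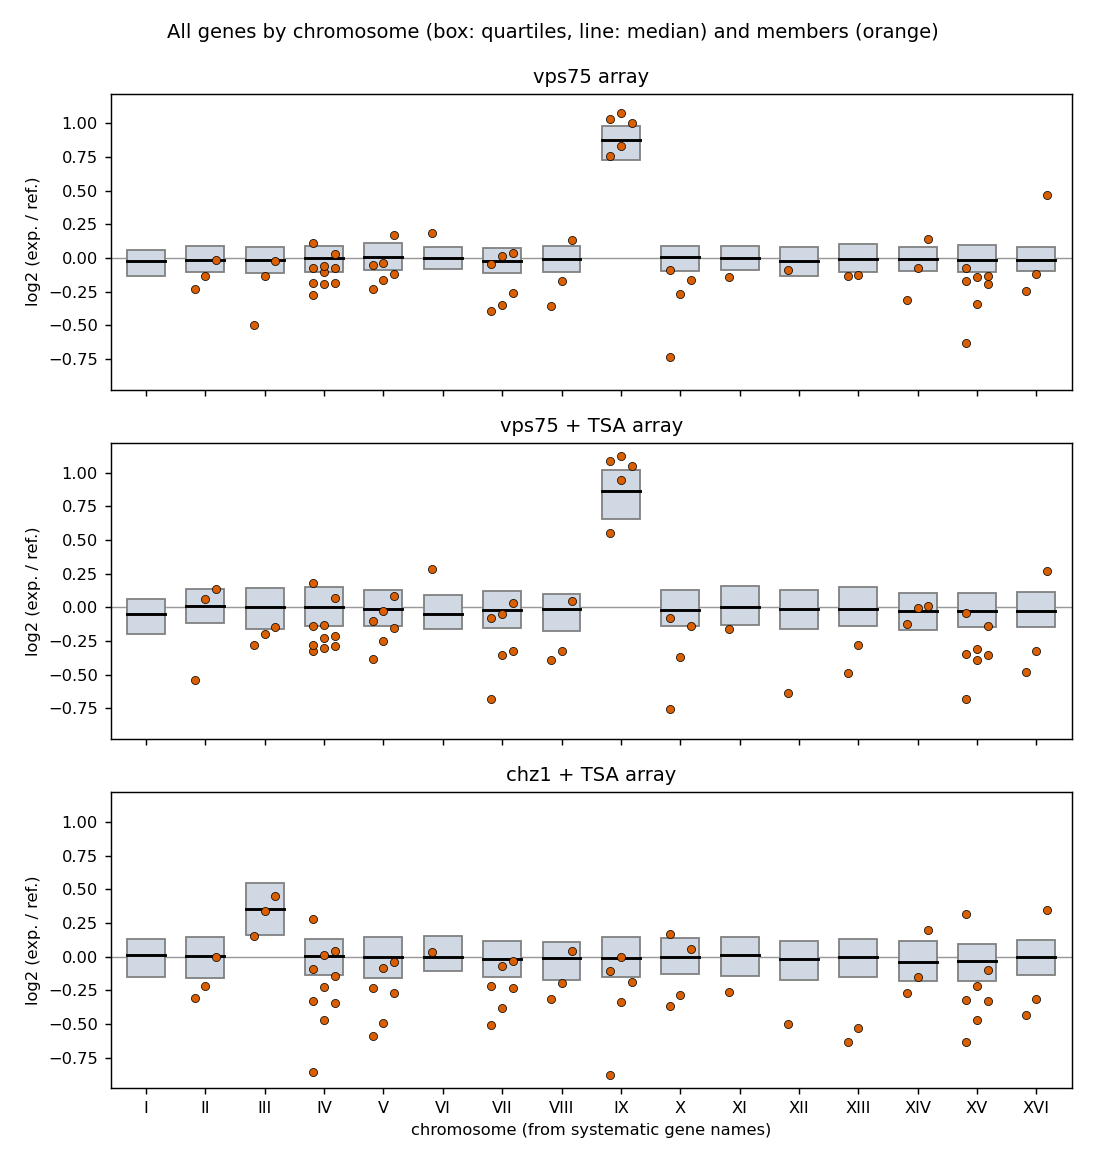
Log2 ratio of experimental over reference RNA (up) by chromosome (across) on the vps75 arrays without and with TSA and on the chz1 array with TSA. Boxes run from the lower to the upper quartile of all genes kept, black lines are medians and orange points are the members. Chromosome IX stands at 0.88 and 0.87 on the vps75 arrays and chromosome III at 0.35 on the chz1 array. The members of these chromosomes lie above 0 there. HIS6 on vps75 with TSA and ILV6 on chz1 with TSA lie below the lower quartile of their chromosome.

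A smaller shift of a whole chromosome was seen in chz1 with TSA. The 161 genes of chromosome III had a median of 0.35 there, with quartiles at 0.16 and 0.55, against -0.00 on the chz1 array without TSA. The 3 members on it were among its genes. HIS4, a multifunctional histidine enzyme, lay at 0.45, THR4, threonine synthase, at 0.34, and ILV6, the regulatory subunit of acetolactate synthase, at 0.15. The other 173 medians of a chromosome on an array lay between -0.11 and 0.07.

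The serine branch held the member with the largest range. SER3 encodes the second 3-phosphoglycerate dehydrogenase, and in rich medium it is known to be held low by transcription of an upstream noncoding RNA through its promoter. Its ratio was 1.78 without and 1.44 with TSA in asf1, 3.43-fold and 2.72-fold, and 1.00 and 0.85 in rtt106, 2.00-fold and 1.80-fold. It was -0.18 and -0.16 in nap1, -0.16 and -0.10 in vps75, 0.32 in wild type with TSA, and -2.54 and -0.04 in chz1. The asf1 and rtt106 arrays stood above all the others, and the 2 arrays of each strain lay close together except in chz1. The neighbouring genes AIM9 and UTP7 lay between -0.20 and 0.09 on the asf1 and rtt106 arrays.

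The reference channel of the chz1 array without TSA was high for SER3. The reference signal was 13719 there and between 355 and 1112 on the 10 other arrays, while the experimental channel of that array read 2350. Relative to the median signal of the channel, SER3 in the reference stood at 3.59 (log2) on it and between -0.01 and 0.74 elsewhere. With this array in the fit, the asf1 difference of SER3 from the other strains was 1.78 ± 0.49, with an adjusted p of 0.149, and the rtt106 difference was 0.92 ± 0.49, with an adjusted p of 0.461. Without the chz1 pair, SER3 was higher in asf1 by 1.40 ± 0.10 (limma, adjusted p = 0.000117) and in rtt106 by 0.49 ± 0.10 (adjusted p = 0.0142). It was lower in nap1 (-0.97) and vps75 (-0.92), where its own ratios lay between -0.18 and -0.10. The other strains in those contrasts include asf1 and rtt106. In that fit, 7.82% of all genes were called higher in asf1 and 7.11% in rtt106. Its paralog SER33 did not share the pattern, at -0.24 and -0.26 in asf1 and -0.09 and -0.08 in rtt106. SER1, phosphoserine aminotransferase, and SER2, phosphoserine phosphatase, lay between -0.58 and 0.19 on all 11 arrays.

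**Figure D3:**
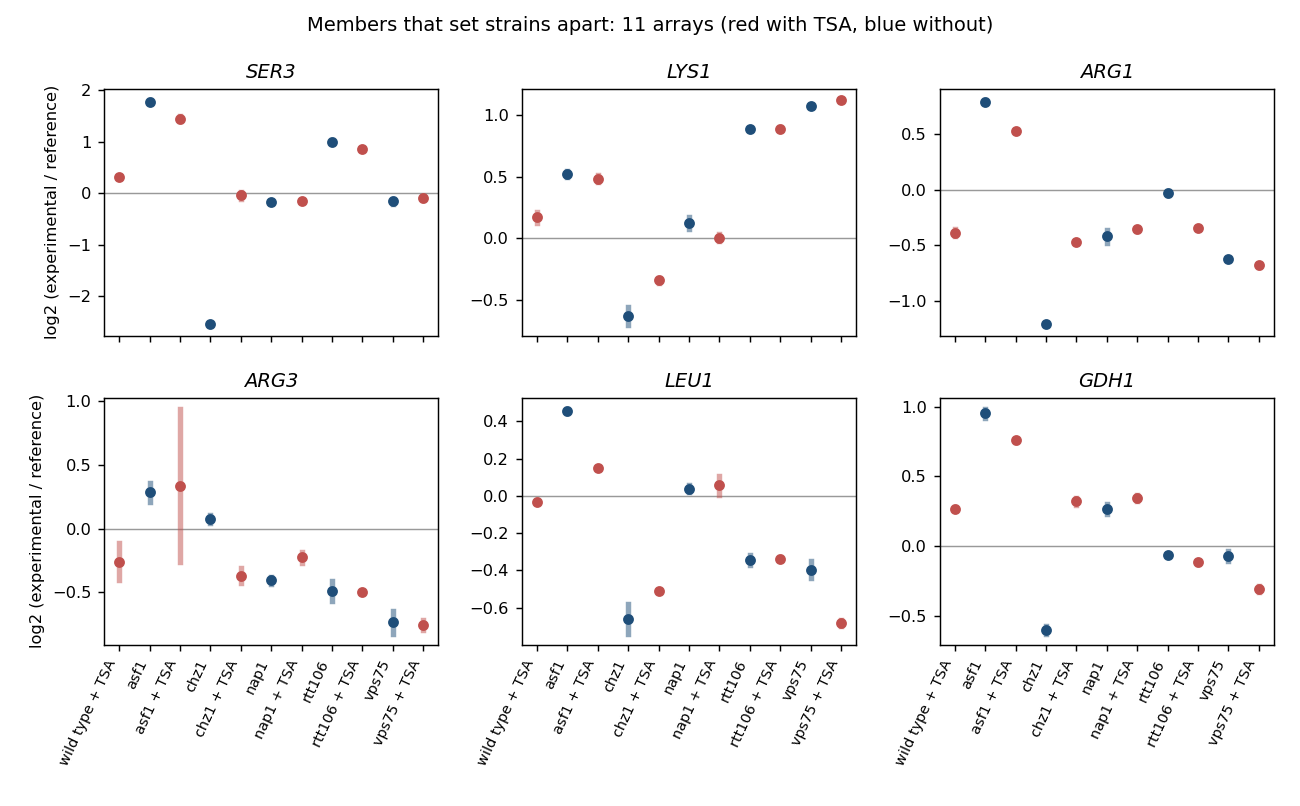
Log2 ratio of experimental over reference RNA (up, own scale in each panel) for 6 members on the 11 arrays (across). Points are the mean of 2 repeat measurements of the array, pale bars join the 2 measurements, and red marks arrays with TSA. SER3 is highest in asf1 and rtt106, LYS1 in vps75 and rtt106, and ARG1, LEU1 and GDH1 in asf1, while the measurements of ARG3 on the asf1 array with TSA lie far apart.

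LYS1 set the strains apart more widely than the chromosome IX shift alone. It lay at 0.89 and 0.89 in rtt106 without and with TSA, at 0.53 and 0.48 in asf1, at 0.12 and 0.01 in nap1, at 0.17 in wild type with TSA and at -0.63 and -0.34 in chz1. The rtt106 values lay below the vps75 values of 1.08 and 1.12 and above those of every other strain. In rtt106 the median of chromosome IX was 0.01 on both arrays, and the neighbours of LYS1, MGA2 and NRE1, lay between -0.49 and 0.30. LYS1 was the 1 member called higher in rtt106, by 0.59 ± 0.11 (limma, adjusted p = 0.0375), where 2.03% of all genes were, and 0 were lower, against 0.236%. It was also the 1 member called lower in chz1, by -1.12 ± 0.11 (adjusted p = 0.0185), where 0.236% of all genes were. Of members called higher in chz1 there were 0, against 0.0507% of all genes. Both calls were kept relative to the own chromosome. The rtt106 call was near the threshold. It did not pass without asf1 (adjusted p = 0.0609) or nap1 (0.118), with median centring (0.0569), with scaling between arrays (0.0615), with the deposited log ratio (0.0631), with the series matrix (0.0874) or with the second measurement alone (0.0743). Likewise, the chz1 call did not pass without asf1 (adjusted p = 0.117), rtt106 (0.142) or vps75 (0.0771).

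The lysine genes on other chromosomes had narrower ranges over the 11 arrays than LYS1 and LYS12, which lie on chromosome IX. LYS20 and LYS21 encode the homocitrate synthases of the first step, LYS4 encodes homoaconitase, and LYS9 encodes saccharopine reductase. Of these, LYS20 had the widest range, from -0.86 on chz1 with TSA to 0.12 on nap1 without TSA, and it was at -0.55 on wild type with TSA. The median of the lysine branch ranged from -0.30 on chz1 with TSA to 0.14 on asf1 with TSA.

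The median of the arginine branch was highest in asf1. It was 0.37 without and 0.30 with TSA in asf1, against -0.24 and -0.37 in vps75, -0.32 and -0.42 in chz1, -0.19 and -0.13 in nap1, -0.02 and -0.20 in rtt106 and -0.20 in wild type with TSA. ARG1, argininosuccinate synthetase, lay at 0.79 and 0.53 in asf1. It was at -1.20 and -0.47 in chz1, -0.42 and -0.36 in nap1, -0.03 and -0.34 in rtt106, -0.63 and -0.68 in vps75 and -0.39 in wild type with TSA. Among the 10 deletion arrays, the 2 of asf1 were the only ones above 0, and turning the wild type array would put it at 0.39.

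ARG3, ornithine carbamoyltransferase, lay at 0.28 and 0.34 in asf1, at 0.08 and -0.37 in chz1, and between -0.74 and -0.23 on the wild type, nap1 and rtt106 arrays and on vps75 without TSA. Its 2 measurements on the asf1 array with TSA were 0.94 and -0.26, so the error of that value is large. CPA1, the small subunit of the carbamoyl phosphate synthetase for arginine, was at 0.56 and 0.26 in asf1 and between -0.64 and 0.17 elsewhere. ARG4, argininosuccinate lyase, was at 0.45 and 0.35 in asf1 and at 0.37 and 0.25 in rtt106. ARG8, acetylornithine aminotransferase, was at -0.24 in asf1 without TSA. With TSA its experimental signal of 235 was below the detection limit of 263, and it was at least 1.38-fold lower than the reference.

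In the fit, 3 members were higher in asf1, where 1.66% of all genes were, and 0 were lower, against 0.304%. ARG1 differed by 1.18 ± 0.19 (limma, adjusted p = 0.0324), ARG3 by 0.73 ± 0.13 (0.0399) and LEU1, isopropylmalate isomerase of the leucine pathway, by 0.66 ± 0.12 (0.0442). LEU1 lay at 0.46 and 0.15 in asf1, at 0.04 and 0.06 in nap1 and between -0.68 and -0.03 on the other 7 arrays. GDH1, the glutamate dehydrogenase that fixes ammonia, lay at 0.95 and 0.76 in asf1 and between -0.60 and 0.34 elsewhere, with a difference of 0.88 ± 0.21 that did not pass (adjusted p = 0.115). These calls were near the threshold, and the ARG3 fit includes its measured value on vps75 with TSA, below the detection limit. Without nap1 or without vps75, 0 members were called in asf1, and without rtt106 only ARG1 was. Without chz1, 6 members were higher in asf1 (SER3, ARG1, GDH1, ARG3, LEU1 and CPA1), where 7.82% of all genes were, and 3 were lower (HIS6, SER33 and LYS12), where 4.1% were. The 3 lower ones lie on chromosome IX, and the other strains in that contrast include vps75.

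In vps75, ARG1 and ARG3 lay below the reference. ARG1 was at -0.63 and -0.68 and ARG3 at -0.74 without TSA, and these were the 2 members at least 1.5-fold lower on the array without TSA, where 0.743% of all genes were. With TSA the experimental signal of ARG3, 69.0, was below the detection limit of 105, and ARG3 was at least 1.30-fold lower. ARG4 lay above the reference in vps75, at 0.13 and 0.05. The fitted ARG3 difference from the other strains was -0.58 ± 0.13, with an adjusted p of 0.0737 (limma). That fit includes the measured value below the detection limit. Without chz1, 6 members were lower in vps75 (SER3, ARG1, ARG3, GDH1, LEU1 and BAT1), against 4.54% of all genes. The other strains in that contrast include asf1, where these members lay above the reference. In vps75 itself, SER3 lay at -0.16 and -0.10 and GDH1 at -0.07 and -0.31. In the same fit, LYS1, SER3 and HIS5 were lower in nap1, where 5.2% of all genes were, and 0 members were higher, against 2.21%. LYS1 and HIS5 lie on chromosome IX, and the other strains in the nap1 contrast include vps75. They also include asf1 and rtt106, where SER3 was high. HIS5 itself lay at -0.18 and -0.06 in nap1 and at 0.76 and 1.08 in vps75. In rtt106 GDH1 and ILV2 were lower in that fit, against 7.33%. GDH1 lay at -0.06 and -0.12 in rtt106 and at 0.95 and 0.76 in asf1, and ILV2 lay at -0.49 and -0.58 in rtt106. BAT1, the mitochondrial branched-chain aminotransferase, was at -0.35 and -0.33 in vps75 and at 0.38 and 0.24 in asf1. With all 5 strains, 0 members were called in either direction in nap1, as were 0.0169% of all genes in each direction, and 0 members reached 1.5-fold on either nap1 array, against 1.99% of all genes higher and 0.422% lower without TSA and 0.709% and 0.456% with TSA.

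**Figure D4:**
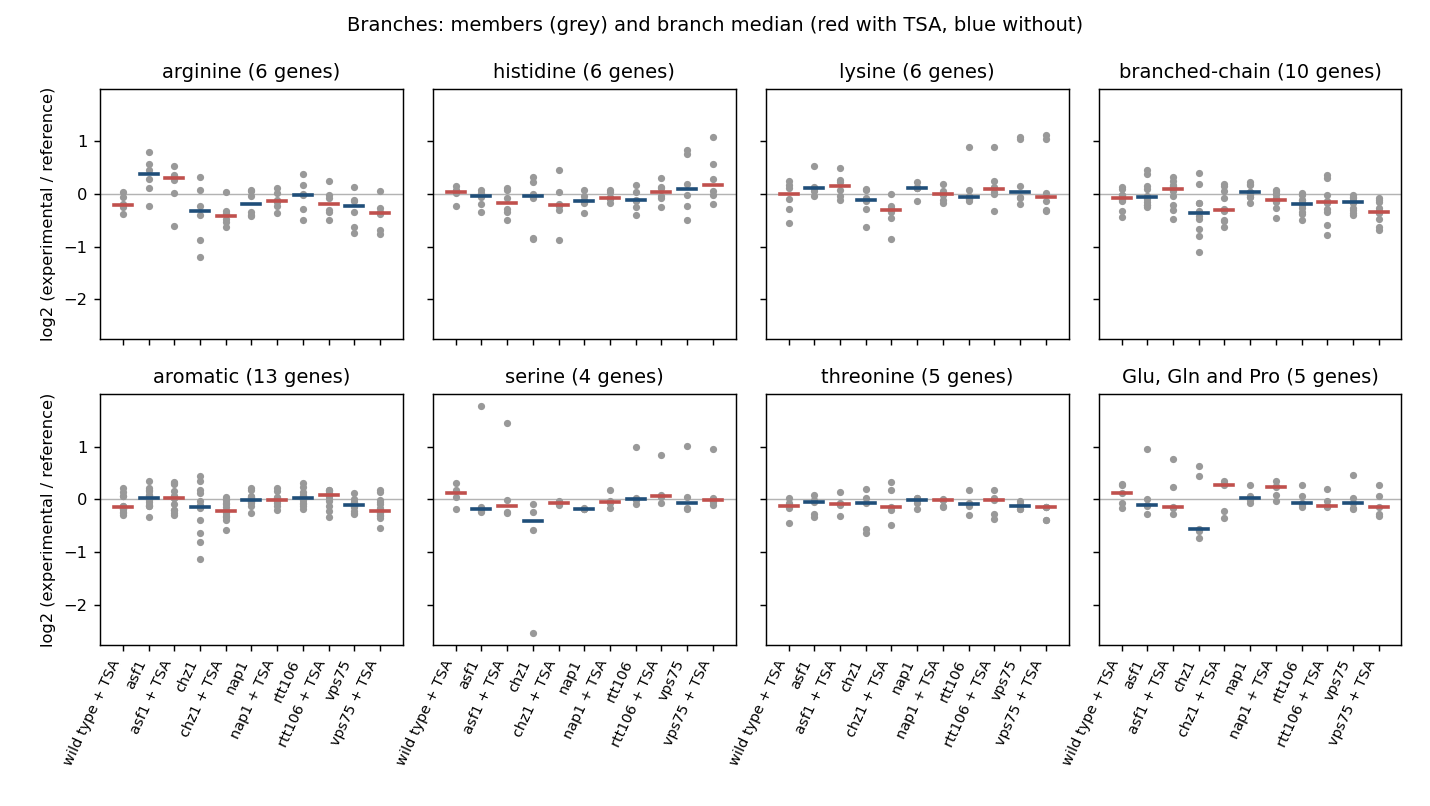
Log2 ratio of experimental over reference RNA (up) of the members of 8 branches (grey points) on the 11 arrays (across), with the branch median as a bar, red with TSA and blue without. The arginine bars stand at 0.37 and 0.30 in asf1 and at or below -0.02 on every other deletion array, and the bar of the glutamate, glutamine and proline genes moves from -0.57 to 0.28 between the chz1 arrays.

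The branched-chain genes lay mostly below the reference. The branch median reached -0.37 on chz1 without TSA and -0.34 on vps75 with TSA. ILV5, acetohydroxyacid reductoisomerase, was below 0 on all 10 deletion arrays. It was at -0.02 in wild type with TSA, -0.20 and -0.48 in asf1, -1.11 and -0.50 in chz1, -0.18 and -0.46 in nap1, -0.38 and -0.77 in rtt106 and -0.09 and -0.63 in vps75. ILV2, the catalytic subunit of acetolactate synthase, ranged from -0.63 on chz1 with TSA to 0.04 on nap1 without TSA. LEU4, an isopropylmalate synthase, was an exception with values from -0.31 to 0.36.

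The aromatic genes had the flattest medians among the large branches, from -0.22 on chz1 with TSA to 0.08 on rtt106 with TSA. ARO1, a protein with 5 enzyme activities of the shikimate pathway, lay at -1.12 on chz1 without TSA and between -0.29 and 0.17 on the other 10 arrays. TRP5, tryptophan synthase, was at 0.35 and 0.31 in asf1, and TRP4, anthranilate phosphoribosyltransferase, was at 0.32 in rtt106 without TSA. Among threonine genes, THR1, homoserine kinase, lay between -0.57 and -0.00 on the 11 arrays. ASN1 and ASN2, the asparagine synthetases, lay between -0.66 and 0.28. GLN1, glutamine synthetase, was at 0.47 and 0.27 in vps75, at -0.74 in chz1 without TSA and at 0.34 in chz1 with TSA.

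On the chz1 array without TSA, 16 members were at least 1.5-fold lower, against 12.3% of all genes, and 1 was higher (PRO2, of proline synthesis, at 0.63), against 9.68%. The lowest 3 were SER3 at -2.54, ARG1 at -1.20 and ARO1 at -1.12. None of the 16 was that low with TSA, where 11 of them lay below 0 and 5 above, with a median of -0.24. Of these 16 genes, 12 had a reference signal above the median of the other 4 untreated arrays, each taken relative to its channel, and in 10 the reference signal was further from that median than the experimental signal was. The 16 were picked by a low ratio on this array, which by itself favours a high reference signal. The same counts were not made for the 726 genes of all that were as low, so these have no baseline. On the chz1 array with TSA, 5 members were at least 1.5-fold lower, against 2.42% of all genes, and 0 were higher, against 3.19%. These included HIS6 at -0.88, LYS20 at -0.86 and CPA1 at -0.64.

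The remaining arrays held few members beyond 1.5-fold. In asf1 without TSA, 3 were higher (SER3, GDH1 and ARG1), against 4.56% of all genes, and 0 were lower, against 1.08%. With TSA, 2 were higher (SER3 and GDH1), against 6.79%, and 1 was lower by its measured value (ARG8, below the detection limit), against 2.8%. In rtt106, SER3 and LYS1 were higher on both arrays, against 4% and 4.56%, 0 were lower without TSA, against 1.33%, and ILV5 was lower with TSA at -0.77, against 3.82%. In vps75 with TSA, 4 were higher, against 4.81%, and 4 were lower by their measured values (LEU1, ARG1, ILV5 and ARG3, the last below the detection limit), against 1.35%. In wild type with TSA, 0 members reached 1.5-fold, against 0.98% of all genes higher and 0.54% lower. The lowest there were LYS20 at -0.55, ILV6 at -0.45 and THR1 at -0.44, and the highest was SER3 at 0.32. If that array runs the other way, these signs and this order reverse.

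Across the 5 untreated deletion strains, the mean log2 ratio was tested against 0 over all genes. By limma 0 genes and 0 members passed, with a smallest adjusted p of 0.653. At an unadjusted p under 0.05, 0 members were higher, against 4.39% of all genes, and 7 were lower, against 2.72%. The means of 38 members lay below 0, as did those of 47.3% of all genes, and the median of the members was -0.05 against 0.01 for all genes. The lowest means were those of ILV5 at -0.39 ± 0.42 (SD over the 5 arrays), HIS4 at -0.36 ± 0.35, ILV3 at -0.30 ± 0.29, ARG1 at -0.30 ± 0.74, ARO1 at -0.30 ± 0.49 and THR1 at -0.27 ± 0.21. The highest were LYS1 at 0.40 ± 0.68, LYS12 at 0.23 ± 0.46, HIS2 at 0.13 ± 0.14, BAT1 at 0.13 ± 0.32, GDH1 at 0.10 ± 0.57 and HIS6 at 0.10 ± 0.46. Of these, LYS1, LYS12 and HIS6 lie on chromosome IX and read 1.08, 1.03 and 0.83 in untreated vps75. In the other untreated strains LYS1 lay between -0.63 and 0.89, LYS12 between -0.14 and 0.11 and HIS6 between -0.34 and 0.22. Without chz1 the means were -0.21 for ILV5, -0.24 for HIS4, -0.18 for ILV3, -0.07 for ARG1, -0.09 for ARO1 and -0.20 for THR1. On the other side, they were 0.65 for LYS1, 0.32 for LYS12, 0.09 for HIS2, 0.06 for BAT1, 0.27 for GDH1 and 0.07 for HIS6.

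On all 5 untreated arrays, 11 members, or 19.0%, lay below 0, while 5.49% of all genes did. These were HIS1, LYS4, ILV3, ILV5, ILV6, BAT2, ARO2, ARO4, THR1, HOM3 and ASN1, and most of their values were small. The number above 0 on all 5 was 0, against 5.32% of all genes. On the 4 arrays without chz1, 15 members lay below 0 throughout, 25.9% against 11.5% of all genes, and 5 lay above 0, 8.62% against 10.7%. In the fit without chz1, 34 member means were below 0, against 49.2% of all genes, with 7 lower and 2 higher at an unadjusted p under 0.05, against 4.76% and 6.7%, and a smallest adjusted p of 0.368 over all genes. The 5 arrays share wild type as the reference, and the spread of that reference is not part of the test. By the labels they also share the assignment of dyes, and effects of dye on single genes were not tested.

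TSA changed no member detectably across the strains. The effect was fitted in limma as the difference between the 2 arrays of a strain, with the strain as a block, and 0 genes and 0 members passed (0% of 5921). The smallest adjusted p was 0.220 over all genes and 0.814 over the members. An unadjusted p under 0.05 was reached by 254 genes, 4.29%, and by 3 members, of which HIS5 was higher and ILV2 and LYS20 were lower. The TSA mean lay above 0 for 28 members and below 0 for 30, while 49.6% of all genes lay above 0, and the median of the members was -0.01.

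The largest TSA means rested on chz1. SER3 had a mean of 0.42 ± 1.17 (SD over 5 strains), with a difference of 2.50 in chz1 and between -0.33 and 0.06 in the other strains, and without chz1 its mean was -0.10. HIS4 had 0.40 ± 0.51, with 1.29 in chz1. HIS6 had -0.35 ± 0.43, with -1.10 in chz1, and LYS20 had -0.34 ± 0.34. ARO1 had 0.23 ± 0.54, GLN1 0.22 ± 0.53 and TRP2, anthranilate synthase, -0.18 ± 0.44, and the means of ARO1, GLN1 and TRP2 were -0.01, 0.00 and 0.01 without chz1. Without chz1 HIS4 was at 0.18, HIS6 at -0.16 and LYS20 at -0.20. ILV5 had a mean of -0.18 over the 5 strains and of -0.37 without chz1. The difference of HIS4 in chz1 was measured on chromosome III, whose genes as a whole differed by 0.38 there.

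Some members moved the same way in each strain. HIS4, HIS5, TRP1 and SER1 had a difference above 0 in 5 of 5 strains, 6.90% of members against 4.12% of all genes. ARG8, HIS6, LYS20 and ILV2 had one below 0 in 5 of 5, again 6.90%, against 3.87%. ILV2 differed by -0.25 ± 0.17, HIS5 by 0.29 ± 0.23, ARG8 by -0.24 ± 0.27 and SER1 by 0.19 ± 0.18, each with an adjusted p of 0.814, and CPA1 differed by -0.19 ± 0.24. Without chz1 the mean of ILV2 was -0.20, that of HIS5 0.20, that of ARG8 -0.14, that of SER1 0.12 and that of CPA1 -0.13. The ARG8 values include its array below the detection limit.

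**Figure D5:**
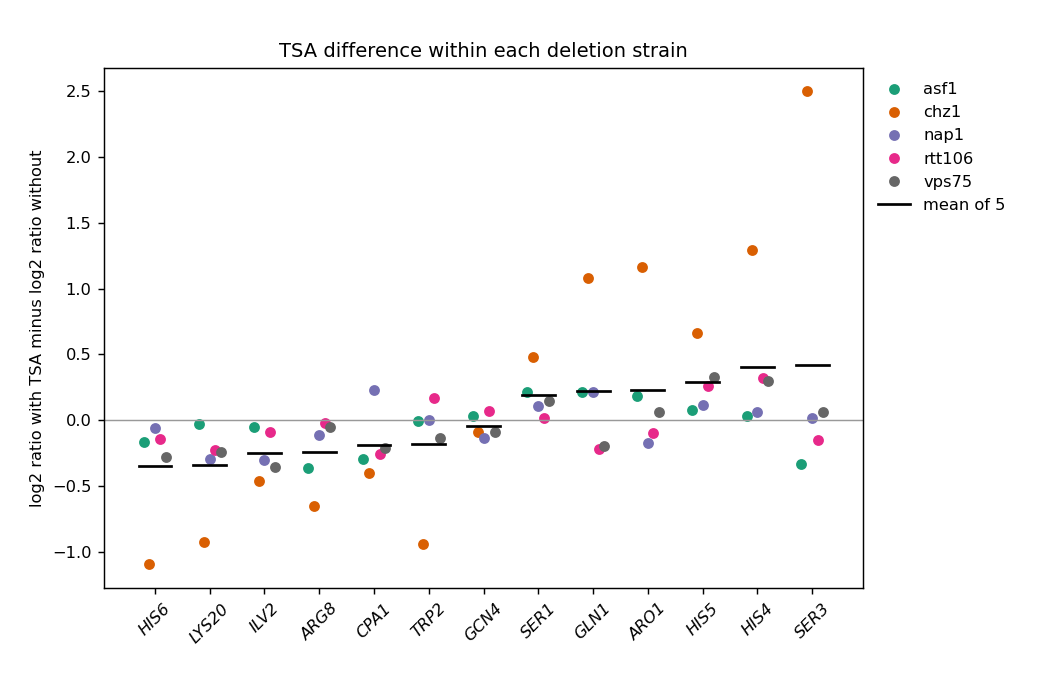
TSA difference (up: log2 ratio with TSA minus log2 ratio without, in the same strain) for GCN4 and the 6 members with the highest and the 6 with the lowest mean (across), with 1 coloured point for each strain and a black bar at the mean of 5. The chz1 point lies furthest from 0 for SER3 (2.50), HIS4 (1.29), ARO1 (1.16) and HIS6 (-1.10), and the points of GCN4 lie between -0.14 and 0.07.

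GCN4 mRNA lay within 1.5-fold of the reference on all 11 arrays. Its ratio was -0.18 in wild type with TSA, 0.07 and 0.10 in asf1, -0.17 and -0.27 in chz1, -0.10 and -0.23 in nap1, -0.20 and -0.13 in rtt106 and 0.18 and 0.09 in vps75. The asf1 and vps75 values lay above 0 and those of the other deletion strains below. The TSA difference averaged -0.04 ± 0.09 (SD over 5 strains, limma adjusted p = 0.881), and the untreated mean was -0.05 ± 0.16 (adjusted p = 0.873), or -0.01 without chz1. The vps75 difference from the other strains was 0.25 ± 0.09 (SE, adjusted p = 0.426), the asf1 difference 0.19 ± 0.09 (0.353) and the chz1 difference -0.19 ± 0.09 (0.352). The sign of the untreated mean depended on scaling, at 0.17 with median centring, 0.13 with the series matrix and 0.22 with the log ratio that the authors deposited.

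Genes that control GCN4 and other genes of the pathway were taken from lists chosen by function. Of 16 genes that control GCN4 translation, such as GCN2, the kinase that senses uncharged tRNA, 0 were called in any comparison. Their TSA means had a median of -0.10 with 13 of 16 below 0, while 49.6% of all genes lay above 0. Without and with TSA, their median ratio was 0.20 and -0.22 in chz1, where it moved most. It was -0.07 and -0.10 in asf1, -0.11 and -0.07 in nap1, -0.05 and -0.11 in rtt106 and -0.09 and -0.18 in vps75. Their TSA mean without chz1 was not computed. Among further amino acid synthesis genes, ARG56, which encodes the arginine branch enzymes of acetylglutamate phosphorylation and reduction, lay at 0.31 and 0.33 in asf1 and was higher there by 0.68 (limma, adjusted p = 0.0236), where 1.66% of all genes were. GDH3, a second glutamate dehydrogenase, was higher in rtt106 by 0.64 (adjusted p = 0.0399), where 2.03% of all genes were, at 0.58 and 0.91. Among 20 tested genes of amino acid uptake and sensing, the proline permease PUT4 was the 1 called, higher in asf1 by 0.63 (adjusted p = 0.0323), against 1.66% of all genes in that contrast.

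SNZ1, a vitamin B6 synthesis gene known as a Gcn4 target, lay at 1.23 and 1.13 in rtt106 and at 0.92 and 1.04 in asf1, and between -0.14 and 0.23 on the other arrays. It was called higher in rtt106, by 0.89 (limma, adjusted p = 0.0102), where 2.03% of all genes were, and in asf1, by 0.64 (adjusted p = 0.0424), where 1.66% were. Its neighbour and partner SNO1 lay at 0.65 and 0.48 in rtt106 and 0.29 and 0.57 in asf1, and was not called. In vps75, DAL81, a regulator of nitrogen genes, and THS1, threonyl-tRNA synthetase, were called higher, where 2.36% of all genes were, and both lie on chromosome IX.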

How the data were processed

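Total RNA was hybridised to 11 Agilent arrays with 2 colours, reference in Cy5 and experimental RNA in Cy3 per the labels, which name no dye swap. On nap1 without TSA, however, the deleted gene was low in the deposited channel that held the reference on the other deletion arrays. Whether dyes or only columns were exchanged there was not tested. Each deposited file gave every probe's intensity, measured 2 times in each channel, and a log10 ratio. The authors also deposited a signed fold, a score rounded to 1 decimal, and a series matrix of its log2 values with unstated scale and centring, in which the 2 vps75 columns hold each other's array. The sample files were followed. The sources used here do not state the image software, background correction or channel scaling.

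Array directions followed the deleted genes, which turned the nap1 array without TSA. Signals were raised by 50, normalized by loess within each measurement and averaged (limma 3.58.1, R 4.3.3). A gene counted as detected above 2 times the median signal of URA3, LEU2, HIS3 and LYS2, which BY4742 lacks, and 5921 genes detected on at least 50% of the 10 deletion arrays were kept. The planned normexp alternative was applied to the signals, since no background columns were found. Of 6256 genes, 5756 matched a RefSeq symbol (R64), and 18 control probes were left out. Chromosomes come from systematic names.

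Fits used lmFit and eBayes with Benjamini-Hochberg adjustment over the genes kept, at 0.05. They were also run on simulated data with independent noise and large added effects. Those data had no array as wide as untreated chz1 and no whole-chromosome shift, so they cannot show how the fits behave under these. The TSA effect took strain as a block, and strain contrasts set each strain against the mean of the other 4. The arrays of a strain deviated together over genes at a correlation of 0.676 in vps75, 0.657 in rtt106, 0.593 in asf1, 0.400 in nap1 and -0.152 in chz1. The number of arrays limits the precision, and p-values measure the spread between these arrays, which may be technical. The text names the members called, then the 6 highest and lowest means (4 per strain contrast, 3 per array), and GCN4. The members and lists were chosen with earlier results of these data known, and 1 gene of these lists is not reported here.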

Additional observations from a re-analysis of the deposited data

Results flagged for a closer look

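Among 47 groups of 5 strains, 10 held a strain whose value stood far from the other 4 by Dixon's criterion, which chance would mark in about 1 in 20 groups. Many of these groups belong to members named for their high or low means, to which 1 outlying strain contributes, so that rate does not hold for them. In 9 of the 10 that strain was chz1. Its TSA difference stood apart for SER3 at 2.50, HIS4 at 1.29, ARO1 at 1.16, TRP2 at -0.943 and HIS6 at -1.10. It also stood apart for the branch medians of threonine at 0.139 and of glutamate, glutamine and proline at 0.842. Without TSA, chz1 stood apart for the median of glutamate, glutamine and proline at -0.566 and for ILV5 at -1.11. The chz1 array without TSA enters each of these 9 values, and its wide log2 spread moves with them. Its part in them was not tested. The remaining group was LYS12 without TSA, at 1.03 in vps75, where chromosome IX had a median of 0.88.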

How the results depend on the processing

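Calls of single members depended on the processing, while the counts of 0 for TSA and for the untreated strains held in all settings with the wild type reference. With median centring the members' median was -0.103 on asf1 and -0.187 on asf1 with TSA, with scaling between arrays -0.0825 on chz1, and with the deposited log ratio 0.0435 on nap1 and 0.00698 on rtt106. With the series matrix, whose rounding sets many values to 0, it was 0 on chz1, chz1 with TSA, rtt106 and vps75 with TSA, and turning the wild type array gave 0.0845. GCN4 without TSA turned to 0.165 (median centring), 0.218 (deposited log ratio) and 0.133 (series matrix). With the untreated deletion read as the reference of the arrays with TSA, 408 genes and 6 members were called. The deleted gene was, however, present in that channel on all of these arrays. The 6 members were all lower (ARO2, ILV3, ILV5, ILV2, ARG8 and ASN1), against 3.48% of all genes, and 0 were higher, against 3.41%. The members' median was -0.0716, and the means of ARO1 and SER1 turned to -0.0688 and -0.0315. Under the wild type reading, the same test compares the deletion strains with TSA against untreated wild type.

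Summed over the 5 strain contrasts, 444 genes and 9 members were called. Leaving out a strain gave 65 to 2544 genes and 1 to 27 members, with the highest counts without chz1 and the lowest without vps75. It turned GDH1 without TSA, which ranged from -0.117 (without asf1) to 0.272. It also turned 3 TSA means without chz1, in ranges of -0.270 to 0.00733 for TRP2, -0.00614 to 0.329 for ARO1 and -0.102 to 0.606 for SER3. Without vps75 it turned HIS6 without TSA (-0.0869 to 0.205) and SER33 in nap1 (-0.374 to 0.0350) and rtt106 (-0.343 to 0.0659). Relative to the own chromosome, added after seeing the data, the counts were 287 and 5, HIS6 without TSA was -0.0834 and LYS1 in vps75 -0.00873. LEU1 in asf1 did not pass with median centring (adjusted p = 0.123), normexp (0.0651), the deposited log ratio (0.0936), the first measurement alone (0.0748), the vps75 arrays exchanged (0.0672) or the series matrix (0.237). The series matrix also lost ARG1 in asf1 (0.0808) and HIS5 in vps75 (0.0823), and ARG3 did not pass with the second measurement alone (0.264). The cause was not tested. Without the replicate block of strain, 0 genes passed for TSA and the members' median was -0.0127, so the pairing changed no call.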

Other observations

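The 12 genes of purine synthesis, a pathway that shares the activator Bas1 with histidine synthesis, had TSA means above 0 in 12 of 12 cases, with a median of 0.34, against 49.6% of all genes, although 0 of them passed the limma test. Without chz1, whose untreated array stood apart, 11 of 12 were above 0, with a median of 0.16, against 48.1% of all genes. The median TSA difference was 0.90 in chz1, 0.30 in nap1, 0.25 in rtt106, 0.19 in vps75 and -0.00 in asf1. Their untreated means lay below 0 in 11 of 12, with a median of -0.34, and of -0.21 without chz1. ADE17, of the last steps, had a TSA mean of 0.89 and 0.53 without chz1, MTD1, of one-carbon metabolism, 0.51, and ADE2 0.44. On wild type with TSA these 3 genes lay at 0.33, 0.64 and 0.60, if its likely direction holds. The untreated chz1 array held the lowest purine values, with a median of -0.71 and ADE17 at -1.75. Of 20 tRNA synthetase genes, 17 had untreated means below 0, with a median of -0.11, and of 8 genes of amino acid breakdown, 8 had untreated means above 0, with a median of 0.21. Of all genes, 47.3% had untreated means below 0. The untreated synthetase median was -0.07 in asf1, -0.23 in chz1, -0.03 in nap1, -0.16 in rtt106 and -0.13 in vps75. For the breakdown genes it was 0.47, -0.24, 0.04, 0.37 and 0.38 in the same order. These 2 lists were not computed without chz1.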
